A study of Zingiber officinale with 6 samples.

Results

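The AP2 domain is a DNA-binding domain of plant transcription factors. The genes described here are LOC122003585, LOC122000419 and LOC122025240, 3 ginger (Zingiber officinale) genes whose products carry this domain. The 3 genes were listed by their row IDs, out of 55601 genes in the files, and they had been chosen from their higher level in exposed plants. Their exposed-against-control values are therefore given as a description, with no p-value, and intervals, standard errors and calls printed for them are not evidence of a difference. Leaf blades of the Laiwu variety were sampled from 3 plants exposed for 21 days to the volatile organic compounds of Pythium oligandrum GAQ1 (Po-VOCs), an oomycete used as a biocontrol agent, and from 3 control plants. Every plant grew in vermiculite and organic matter in a pot sealed onto a glass jar with V8 agar, at 25ºC with 16 h of light. The jar held P. oligandrum in the Po-VOCs group and no microbe in the control group, and the volatiles reached the roots through holes in the pot. A single library was made from each plant, so 3 plants stand against 3. GEO's design text describes the control jar as empty, while the growth protocol gives it V8 agar alone.

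The AP2/ERF superfamily includes the ethylene response factors (ERFs), which typically bind the GCC box of defence gene promoters, and the dehydration-responsive element-binding proteins (DREBs), which bind the DRE/CRT element of cold and drought genes. PTI5 was found in tomato as a partner of the Pto resistance kinase and activates pathogenesis-related genes. DREB1C is known in Arabidopsis as CBF2, a regulator of the response to cold. ERF11 of Arabidopsis is a repressor with an EAR motif that lowers ethylene synthesis. These roles come from other species and were not measured in ginger.

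In the Zo_v1.1 annotation, LOC122003585, the PTI5-like gene, lies on chromosome 7B from 14499060 to 14499905. LOC122000419, the DREB1C-like gene, lies on chromosome 1B from 133527504 to 133528520. LOC122025240, the ERF 11-like gene, lies on chromosome 9B from 120026960 to 120027876. The length by which the authors scaled FPKM was 846, 1017 and 917 bases for the 3 genes in this order. Each equals the whole span of its gene, so the counted models have no intron. The only sequences given for a member gene in the sources used here are the primers that the study designed to measure LOC122003585 by quantitative PCR. They are shown because they define the stretch that assay amplifies. Whether they also amplify the other PTI5-like gene described below was not checked.
LOC122003585 forward primer: accaagacatgtagcaaggcag
LOC122003585 reverse primer: tcagattgggggccatggaa

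The libraries held 13695463 to 14662442 counts each. Their medians were 14049343 counts in the Po-VOCs group and 14134910 counts in the control group. Plants of the same group differed by more than counting noise (chi-square over degrees of freedom, 17.5 to 37.1). Control replicate 3 stood apart on the second principal component, at -58.1, against 35.6 and 18.0 for the other control plants and -4.17 to 5.41 for the exposed plants. The 65 plastid-encoded genes together took 46.2, 63.1 and 241 CPM in Po-VOCs replicates 1, 2 and 3, and 42.6, 90.3 and 38.1 CPM in control replicates 1, 2 and 3. Po-VOCs replicate 3 was thus high in plastid transcripts. The elongation factor gene LOC121989190, used by the study as its PCR reference, had 405 ± 87.3 FPKM in exposed plants and 446 ± 55.2 FPKM in control plants (SD, n = 3 each), with an adjusted p of 0.802 in edgeR's quasi-likelihood test. Nuclear leaf markers were not looked up, since the annotation used here carries no product names, so the tissue label rests on the sample labels.

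The PTI5-like gene was below the median of genes tested (5.24 FPKM) in control leaves and was higher, but uneven, in exposed leaves. LOC122003585 had 5.35, 8.79 and 18.3 FPKM (62, 109 and 217 counts) in Po-VOCs replicates 1, 2 and 3. It had 3.88, 3.80 and 2.51 FPKM (46, 46 and 30 counts) in control replicates 1, 2 and 3. The groups did not overlap, but exposed replicate 1 was only 1.38-fold above the highest control plant. Against the control mean, the exposed plants stood at 1.58-fold, 2.59-fold and 5.38-fold. The means were 10.8 ± 6.68 FPKM in exposed plants and 3.40 ± 0.768 FPKM in control plants (SD, n = 3 each). The fitted log2 fold change was 1.71 with a standard error of 0.52, a 3.26-fold difference. It was 1.01, or 2.02-fold, when Po-VOCs replicate 3, the plant with the most plastid transcripts, was left out. It was 2.06, or 4.18-fold, when Po-VOCs replicate 1 was left out. The size of the difference thus rested largely on exposed replicate 3, and the part of that library's plastid content in it was not tested.

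The DREB1C-like gene was nearly silent in control leaves. LOC122000419 had 10, 52 and 29 counts in Po-VOCs replicates 1, 2 and 3, which is 0.718, 3.49 and 2.03 FPKM. It had 0, 1 and 1 count in control replicates 1, 2 and 3, which is 0, 0.0687 and 0.0696 FPKM. The groups did not overlap, and the lowest exposed plant was 10.3-fold above the highest control plant. Summed over plants, the 91 counts of the Po-VOCs group and 2 counts of the control group give a ratio of 45.6 per total count. Its exact 95% interval (conditional binomial) was 12.3 to 382 and covers counting error only, not the choice of the gene on this difference. The fitted log2 fold change of 5.27 (standard error 0.94) depends on edgeR's treatment of such low counts. On the log2(FPKM + 1) scale, which compresses low values, the difference was 1.45. The gene entered the fit only through its exposed libraries, since the control libraries were below the count minimum of 10.

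The ERF 11-like gene was the most strongly expressed of the 3 and the most even between plants. LOC122025240 had 26.4, 32.8 and 32.1 FPKM (331, 441 and 414 counts) in Po-VOCs replicates 1, 2 and 3. It had 10.96, 8.77 and 12.3 FPKM (141, 115 and 159 counts) in control replicates 1, 2 and 3. Every exposed plant was at least 2.15-fold above the highest control plant, so the groups were well separated. The means were 30.4 ± 3.54 FPKM in exposed plants and 10.7 ± 1.77 FPKM in control plants (SD, n = 3 each). The fitted log2 fold change was 1.51 (standard error 0.22), a 2.86-fold difference, and it lay between 1.40 and 1.66 with any single library left out.

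**Figure D1:**
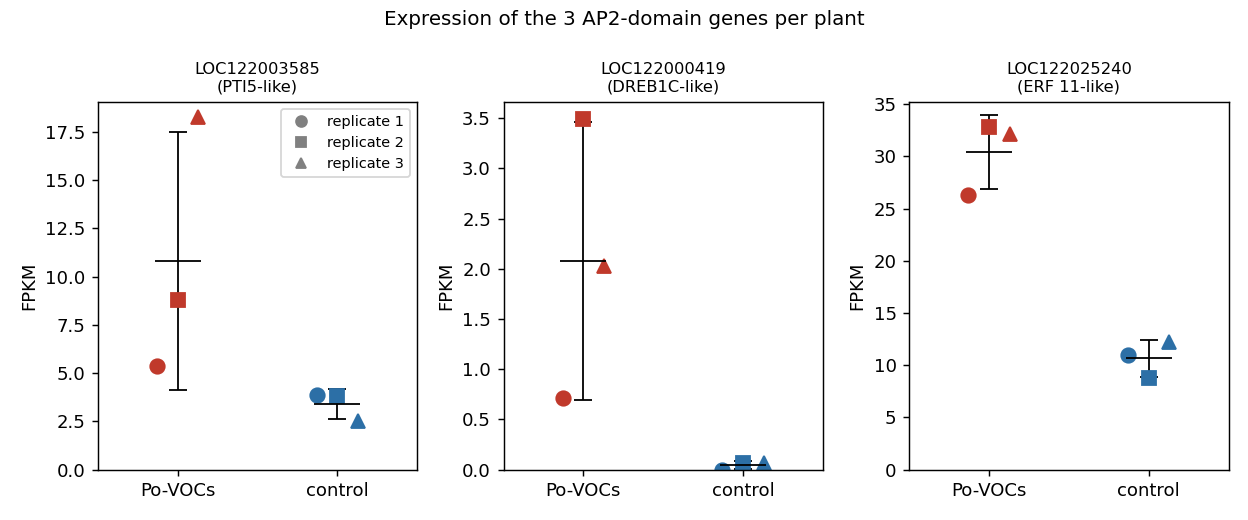
FPKM of LOC122003585, LOC122000419 and LOC122025240 in each plant, with Po-VOCs on the left and control on the right of each panel; marker shapes give the replicate number, long dashes the group mean and bars the SD of 3 plants, and each panel has its own scale. The PTI5-like gene reaches 18.3 FPKM in Po-VOCs replicate 3 and 5.35 in replicate 1, while the ERF 11-like gene lies between 26.4 and 32.8 FPKM in exposed plants.

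The order of the levels in FPKM, which is scaled to gene length, was the same in both groups: ERF 11-like, then PTI5-like, then DREB1C-like. The lowest ERF 11-like value lay above the highest PTI5-like value within each group, and likewise for PTI5-like and DREB1C-like. The gap between the upper genes differed from plant to plant. The FPKM ratio of the ERF 11-like to the PTI5-like gene was 4.93, 3.73 and 1.76 in Po-VOCs replicates 1, 2 and 3, and 2.83, 2.31 and 4.89 in control replicates 1, 2 and 3. The ranges overlapped, so exposed and control plants were not separated by this ratio. By mean FPKM, LOC122025240 stood at percentile 90.7 of the 41508 genes tested in exposed plants and at percentile 71.0 in control plants. LOC122003585 stood at percentile 70.1 in exposed plants and at percentile 37.5 in control plants. LOC122000419 stood at percentile 24.6 in exposed plants and at percentile 0.0482 in control plants. The count filter fixes the second of these values, since it removed genes as low as this in both groups.

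How far the exposed plants differed among themselves was not a stated criterion for choosing the genes, but it is not independent of that choice. The median ratio of the highest to the lowest exposed plant was 2.08 over genes called up by DESeq2. It was 1.57 over genes tested with mean FPKM above 1 in the higher group. Genes of like level were not chosen for a difference, so the comparison with them is a description. The coefficient of variation among exposed plants was 61.9% for LOC122003585, where the 7813 genes of like level (mean FPKM in exposed plants within 0.5 on the log2 scale) had a median of 19.2%, and 3.31% of them varied more. It was 66.7% for LOC122000419, against a median of 30.8% over 6043 genes of like level, of which 7.26% varied more. It was 11.6% for LOC122025240, against a median of 18.2% over 3392 genes, of which 73.1% varied more. Against genes of like level, the PTI5-like and DREB1C-like genes were thus less even between exposed plants, and the ERF 11-like gene more even. Such unevenness was common among the 39 AP2-domain genes described below, whose median was 47.3%: 12 of them varied more than LOC122003585, 9 more than LOC122000419 and 35 more than LOC122025240. In bulk leaf tissue, a change in the number of cells that express a gene and a change in RNA per cell cannot be told apart. Exposed replicate 1 was the lowest exposed plant in all 3 genes. The highest was replicate 3 for LOC122003585 and replicate 2 for LOC122000419 and LOC122025240.

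By edgeR's quasi-likelihood test with Benjamini-Hochberg adjustment, and with the study's thresholds (adjusted p below 0.05, absolute log2 fold change above 1, mean FPKM above 1 in the higher group), 2 of the 3 genes were called upregulated, against 1.09% of all genes tested. LOC122003585 was the gene not called, and 0 were called downregulated, against 1.02% of all genes. DESeq2, the study's tool, called all 3, against 3.57% of all genes. Limma on log2(FPKM + 1) called LOC122025240 alone, and 605 genes up over all genes. With the replicate block edgeR called 0 of the 3, and 65 genes up over all genes. EdgeR also called 0 of the 3 with Po-VOCs replicate 2 or 3 left out, where 25 and 28 genes were called up over all genes. It called 0 with control replicate 1 or 2 left out, where the calls over all genes were 54 and 1. With control replicate 3 left out it called LOC122025240 alone, and 421 genes up over all genes. All exposed plants lay above all control plants in the 3 genes and in 14.5% of genes tested. Because the genes were chosen on this contrast, nothing is read from these counts. The median log2 fold change of all genes tested was 0.01.

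The nearest genes tested on either side of each member were compared as a local reference. LOC122005380 begins 1103 bases after the end of the PTI5-like gene. It had 164, 185 and 211 counts in Po-VOCs replicates 1, 2 and 3, and 181, 191 and 168 counts in control replicates 1, 2 and 3. The groups overlapped, and it differed by 0.06 on the log2 scale, with a standard error of 0.20 and an adjusted p of 0.899 in edgeR's quasi-likelihood test. LOC122025667, 19250 bases after the ERF 11-like gene, differed by 0.38 on the log2 scale (adjusted p = 0.442), and LOC122022444, 34616 bases before it, by 0.17 (adjusted p = 0.750). The nearest tested genes lay 110889 bases before and 187641 bases after the DREB1C-like gene, with log2 fold changes of -0.45 (LOC121980125, adjusted p = 0.467) and 0.28 (LOC121980152, adjusted p = 0.490). LOC122005379, the nearest tested gene before the PTI5-like gene, lay 352843 bases away with a log2 fold change of 0.16 (adjusted p = 0.675). None of these 6 neighbours passed the test.

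The member genes were then set beside the other AP2-domain genes named in the study's gene table. The rows of that table used here, 1517 in all, are genes the study had called upregulated on these libraries, and 39 of them carry the AP2 domain, the members included. Their direction is therefore not evidence, and AP2-domain genes that fell or did not change were not analysed here. The table was held only in part, so counts and ranks are among these rows and not over the whole family. Of the 39 genes, 37 passed edgeR's count filter, and the median fold change was 5.34, with a range of 2.08 to 38.5. EdgeR called 12 of the 37, against 1.09% of all genes tested. With Po-VOCs replicate 1 left out that count was 22, and it was 1 with replicate 2 or replicate 3 of that group left out. With a control plant left out it was 1 for replicate 1, 0 for replicate 2 and 10 for replicate 3. Up calls over all genes shifted too: 969, 25 and 28 without Po-VOCs replicates 1, 2 and 3. Without control replicates 1, 2 and 3 they were 54, 1 and 421, so these shifts are not particular to the AP2-domain genes. DESeq2 called all 39, against 3.57% of all genes it tested. The study had made its list with DESeq2 on these libraries, so nothing is read from the edgeR or the DESeq2 counts. Some genes with low control counts, such as LOC121977784 (1, 4 and 0), passed the count filter only through exposed plants. By log2 fold change among the 37, LOC122000419 ranked 1st, LOC122003585 26th and LOC122025240 31st. The first place depends on the scale: by the difference in mean log2(FPKM + 1), a ranking added after the values were seen, LOC122000419 ranked 18th, LOC122025240 19th and LOC122003585 28th. By mean FPKM among the 39, LOC122025240 ranked 6th in exposed plants and 5th in control plants, LOC122003585 14th and 11th, and LOC122000419 36th and 39th. The DREB1C-like gene was thus the AP2-domain gene with the lowest control level of those used here, while the other members lay in the upper part of the list by level.

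**Figure D2:**
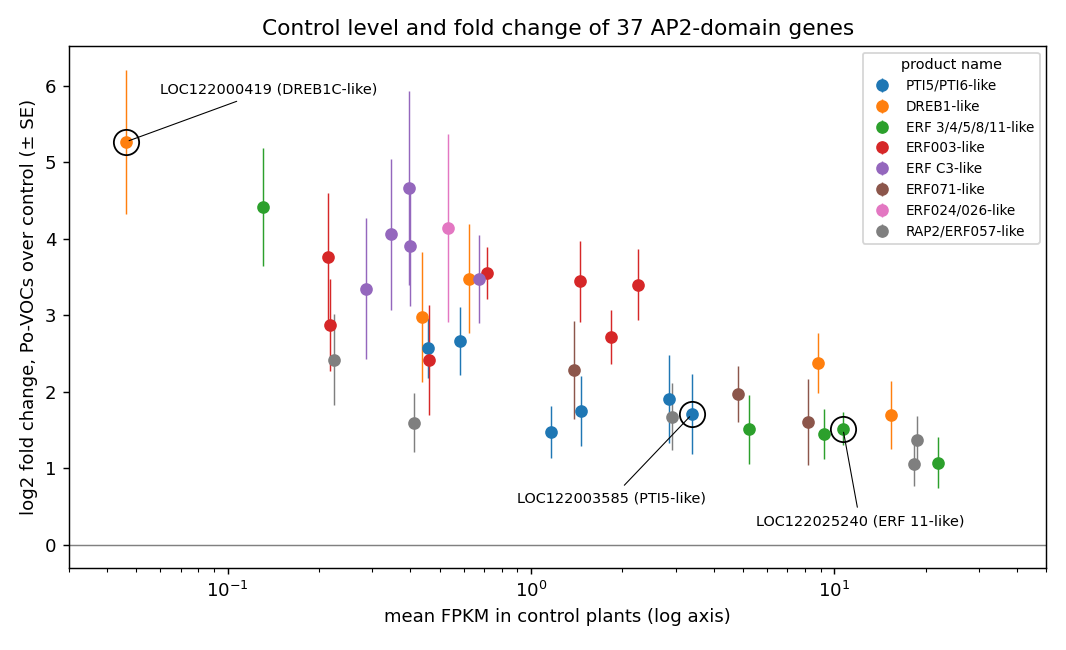
Log2 fold change (Po-VOCs over control, edgeR, bars are standard errors) against the mean FPKM in control plants (log axis) for 37 AP2-domain genes of the study's upregulated list, coloured by product name, with the 3 genes described here circled. LOC122000419 has the lowest control level, 0.0461 FPKM, and, on edgeR's scale, the largest fold change, which is 1.45 on the log2(FPKM + 1) scale; genes above 5 FPKM in control plants have log2 fold changes of 1.06 to 2.37.

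Among the 6 genes named PTI5-like or PTI6-like, log2 fold changes ranged from 1.47 to 2.66. LOC122001098, the other PTI5-like gene, lies on chromosome 7A at 19142735. It had 4.27, 9.78 and 17.3 FPKM in Po-VOCs replicates 1, 2 and 3, and 3.46, 3.31 and 1.79 FPKM in control replicates 1, 2 and 3. The plants stood in the same order as for LOC122003585 within each group. Its log2 fold change was 1.90 (standard error 0.58), and the counts of both genes summed gave 1.81. Reads shared by near-identical copies could have been split between them, since the counting mode is not given, so these genes are not counted as separate evidence. The PTI6-like genes, named for another partner of Pto, were lower: LOC122013876 had 3.66 FPKM in exposed plants and 0.581 FPKM in control plants on average, with the largest log2 fold change of the group, 2.66. LOC122050472, also PTI6-like, had the smallest, 1.47.

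The 6 DREB1-like genes averaged 2.08 to 49.3 FPKM in exposed plants and 0.0461 to 15.4 FPKM in control plants. LOC121996034 (DREB1E-like) had 36.6, 60.0 and 40.1 FPKM in Po-VOCs replicates 1, 2 and 3, and 7.73, 4.97 and 13.8 FPKM in control replicates 1, 2 and 3. It was called by edgeR, with a log2 fold change of 2.37 (standard error 0.39), and its groups did not overlap. LOC121992098 (DREB1G-like) averaged 49.3 FPKM in exposed plants and 15.4 FPKM in control plants, with the smallest log2 fold change of the group, 1.69. Except for these genes, every DREB1-like gene was below 1 FPKM in control plants on average. LOC122027226 (DREB1G-like) was not fitted because only 2 libraries reached the count minimum, with 3, 75 and 41 counts in Po-VOCs replicates 1, 2 and 3 and 1, 2 and 5 counts in control replicates 1, 2 and 3, and its groups overlapped. In all 6 DREB1-like genes Po-VOCs replicate 2 was the highest exposed plant and replicate 1 the lowest.

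Among the 5 genes named ERF 3-like, 4-like, 5-like, 8-like or 11-like, LOC121977784 (ERF 8-like) had the largest log2 fold change, 4.41, with 52, 31 and 32 counts in Po-VOCs replicates 1, 2 and 3 and 1, 4 and 0 counts in control replicates 1, 2 and 3. LOC122034631 (ERF 4-like) had the smallest, 1.07, and the highest control level of all 39 genes. It had 33.9, 47.2 and 55.5 FPKM in Po-VOCs replicates 1, 2 and 3, and 15.4, 18.4 and 32.1 FPKM in control replicates 1, 2 and 3. ERF4 of Arabidopsis is, like ERF11, a repressor with an EAR motif. The ERF 11-like and ERF 8-like genes were the 2 of this group called by edgeR.

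The remaining groups differed in level and in which exposed plant was highest. The 7 ERF003-like genes had log2 fold changes of 2.41 (LOC121998200) to 3.76 (LOC122000317), and 4 were called. The 5 ERF C3-like genes had 3.34 (LOC122030090) to 4.66 (LOC121971195), with 1 called. All 5 were below 1 FPKM in control plants on average and were highest in Po-VOCs replicate 3. The 3 ERF071-like genes, whose Arabidopsis namesake HRE2 belongs to the response to low oxygen, had 1.61 (LOC121981852) to 2.28 (LOC122004528), with 1 called, and were also highest in replicate 3. The ERF024-like gene LOC122040077, with a log2 fold change of 4.14, and the ERF026-like gene LOC122049478, not tested, differed 19.7-fold and 24.5-fold between the highest and the lowest exposed plant, and among the other genes only the DREB1G-like LOC122027226, at 23.4-fold, was as uneven. The 5 RAP2-like or ERF057-like genes had 1.06 (LOC121997004) to 2.42 (LOC122042276), with none called by edgeR. DESeq2, the tool behind the study's list, called all of them. LOC122045778 (ERF057-like, 18.8 FPKM) and LOC121997004 (RAP2-4-like, 18.3 FPKM) followed LOC122034631 in control level.

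Across the 39 genes, Po-VOCs replicate 1 was the lowest exposed plant in 28 and replicate 3 the highest in 24. Of the 1677 genes called up by DESeq2, replicate 1 was the lowest in 49.8% and replicate 3 the highest in 35.0%. Of the 452 genes called up by edgeR, these shares were 32.5% and 32.1%. Of the 37982 tested genes with mean FPKM above 1 in the higher group, they were 22.5% and 26.5%. In those tested genes replicate 1 was the highest in 47.4% and replicate 3 the lowest in 50.3%, so the background depends on the set. Replicate 2 was the highest in 13 of the 39, and replicate 1 in 2. LOC122003585 followed the C3-like and ERF071-like genes, with replicate 3 highest and replicate 1 lowest. LOC122000419 and the other DREB1-like genes had replicate 2 highest and replicate 1 lowest. No test was made of these orders, and whether the plastid-rich library of Po-VOCs replicate 3 bears on them was not tested.

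**Figure D3:**
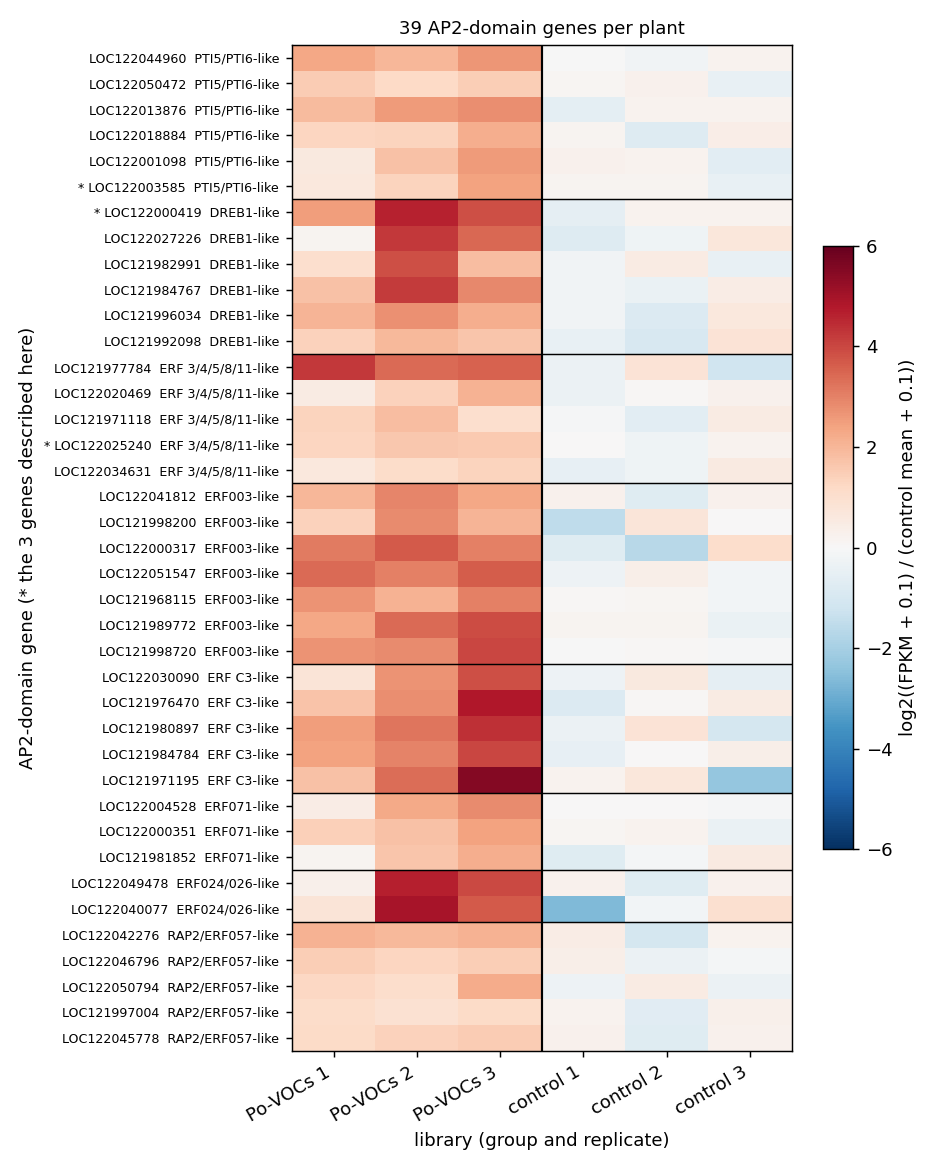
Map of 39 AP2-domain genes (rows, grouped by product name, with stars on the 3 genes described here) in 6 libraries (columns, Po-VOCs left of control); colour is log2 of (FPKM + 0.1) over (control mean + 0.1). Within each row, the darkest red falls in Po-VOCs replicate 2 for the DREB1-like and ERF024/026-like rows and in Po-VOCs replicate 3 for the ERF C3-like rows.

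The ginger assembly holds an A and a B copy of each chromosome, and 11 pairs among the 39 genes share a product name and lie on the A and B copies of a chromosome as each other's nearest such gene. Pairs rest on names and positions alone, and sequences were not aligned. The log2 fold changes of a pair differed by 0.09 to 1.03, with a median of 0.50. The same exposed plant was highest in 9 of the 11 pairs. Replicate 3 was the highest in 24 of the 39 genes and replicate 2 in 13, so unpaired genes often agree as well. Reads could also have been shared between near-identical copies of a pair, so this agreement is not counted as separate evidence. LOC122003585 and LOC122001098 were a pair of this kind, 0.20 apart. LOC122000419 and LOC122025240 had no such partner among the rows used here.

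Likeness to the members was measured by Pearson's r of log2 CPM over the 6 libraries. The 6 libraries form 2 separate groups, so r mostly follows the difference between them and is given as a description. It takes no account of the size of a difference, and the genes named are those with the highest r of many compared. Among the other AP2-domain genes, LOC122003585 was most like LOC122001098 (r = 0.992) and LOC121971195, ERF C3-like (r = 0.985). LOC122000419 was most like LOC121984767, DREB1G-like (r = 0.979), and LOC122013876, PTI6-like (r = 0.976). LOC122025240 was most like LOC122041812, ERF003-like (r = 0.986), and LOC121996034, DREB1E-like (r = 0.975). Among the 37981 other tested genes whose mean exceeded 1 FPKM in either group, LOC122000419 was most like LOC122033786, named putative disease resistance protein RGA1 (r = 0.999), and LOC121989198, named receptor-like protein kinase FERONIA (r = 0.995). LOC122003585 was most like LOC122030140 (r = 0.999) and LOC122037460 (r = 0.998), and LOC122025240 most like LOC122043126 (r = 0.995) and LOC122021480 (r = 0.995), which have no product name in the rows used here. These closest genes had log2 fold changes of 2.70 and 1.31 for LOC122000419, 0.42 and 1.25 for LOC122003585, and 0.87 and 0.71 for LOC122025240. Each was smaller than that of the member itself. Between the members, r was 0.951 for LOC122000419 and LOC122025240 and 0.829 for LOC122003585 with either of them.

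**Figure D4:**
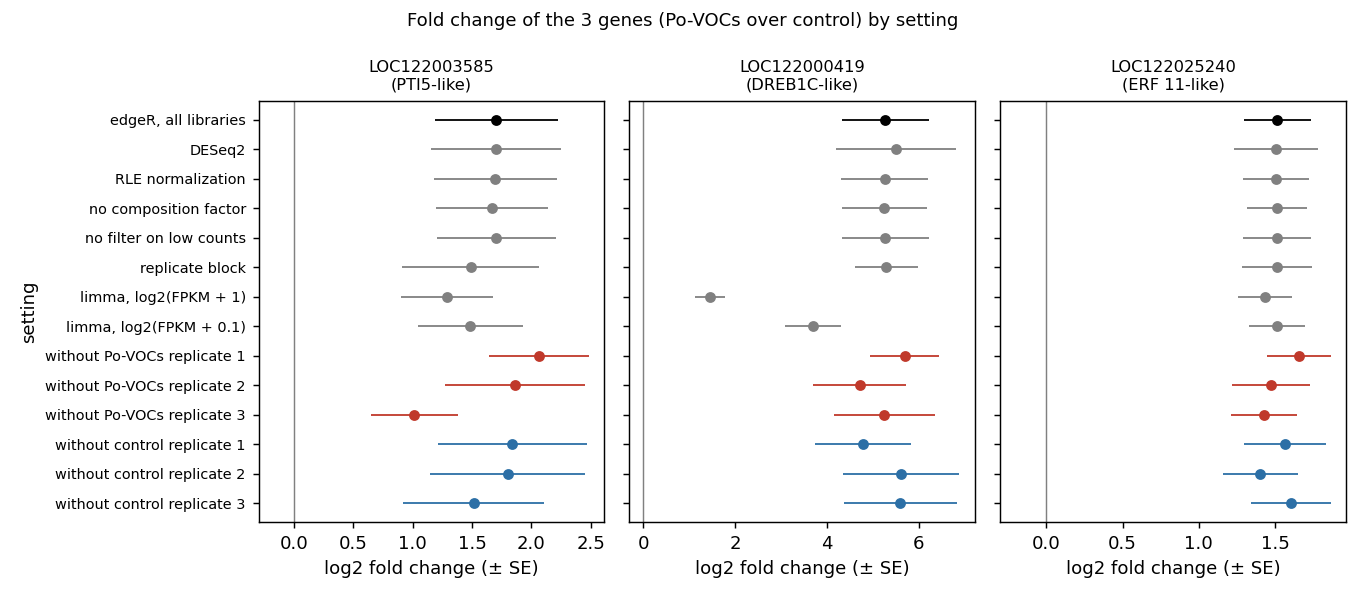
Log2 fold change (Po-VOCs over control, bars are standard errors) of the 3 genes under each setting of the analysis, black for edgeR with all libraries, red with an exposed library left out, blue with a control library left out and grey for other models. LOC122003585 moves most when Po-VOCs replicate 3 is left out (1.01), LOC122000419 on the log2(FPKM + 1) scale (1.45), and LOC122025240 stays between 1.40 and 1.66.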

How the data were processed

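According to the methods, the authors trimmed paired-end reads of stranded mRNA libraries with Trimmomatic, mapped them with HISAT2 to Zo_v1.1 and counted them per gene with HTSeq-count. The authors deposited these counts as whole numbers without normalization. The deposited FPKM is attributed to Cufflinks, but all 299269 values above 0 equalled count over gene length and library total within 0.1%. For versions, counting mode and strand setting the sources used here give nothing.

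The first fit of the deposited counts used edgeR 4.0.16 under R 4.3.3: filterByExpr (minimum count 10, total 15; 41508 of 55601 genes kept), TMM, and the quasi-likelihood test over all genes. A standard error is the absolute log2 fold change over the square root of F. The code was tested on simulated data. DESeq2 1.42.0, limma 3.58.1 on log2 FPKM (pseudocounts 1 and 0.1), other normalizations, no filter, a replicate block, other thresholds and each library left out were alternatives. Limma and the edgeR test give adjusted p over all genes tested. At 13695463 to 14662442 counts per library, intervals cover counting error only.

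The members and lists were chosen with earlier results of these data known. No protein sequences were used, so the planned family list by protein motif, its ERF and DREB subgroups and protein identities gave way to the AP2-domain rows (Pfam PF00847) of the study's table, taken for IDs and names alone. Named were the members, the largest and smallest change per product name, the 3 highest control levels and the closest patterns. Neighbours, plastid genes, the PCR reference gene and A/B pairs were added after values were seen.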

Additional observations from a re-analysis of the deposited data

How the results depend on the processing

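All 3 genes were higher in exposed plants under edgeR with all libraries and under each of 13 other settings. They had been chosen as higher in these same libraries, so this shared direction is not evidence of a difference. With single libraries left out, the log2 fold change was 1.01 to 2.06 for LOC122003585, 4.71 to 5.69 for LOC122000419 and 1.40 to 1.66 for LOC122025240; without control replicate 3, which stood apart, it was 1.51, 5.59 and 1.60 in this order. The calls were less steady. With replicate 1 of the Po-VOCs group left out, edgeR called LOC122000419 and LOC122025240, and with replicate 2 or 3 of that group left out it called none of the 3 genes. With replicate 1 or 2 of the control group left out it called none, and with replicate 3 of that group left out LOC122025240 alone. Of the AP2-domain genes, edgeR called 12, and 0 to 22 with single libraries left out, and 25 at an adjusted p below 0.1. DESeq2, the tool behind the study's list, called 39. The AP2-domain genes had been listed as upregulated on the same libraries, so nothing is read from these counts. Over all genes, edgeR called 452 up and 424 down. With single libraries left out these were 1 to 969 up and 3 to 631 down. Up calls were 969, 25 and 28 without Po-VOCs replicates 1, 2 and 3 in turn. Without control replicates 1, 2 and 3 they were 54, 1 and 421. EdgeR at an adjusted p below 0.1 gave 1147 up and 987 down. DESeq2 called 1677 up and 1412 down. The cause of these shifts was not tested. Summing the counts of both PTI5-like genes, an alternative chosen after seeing the data, gave a log2 fold change of 1.81.

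No pairing by replicate number was seen: deviations of same-numbered exposed and control plants correlated at -0.02, 0.02 and -0.10 over genes. Differently numbered plants ranged from -0.21 to 0.18. With 3 plants per group, these values cannot decide whether same-numbered plants shared a batch. With the replicate block, edgeR called 65 genes up and 71 down, 0 of the AP2-domain genes and none of the 3 members. The subgroup counts by protein motif and the looser motif were not run.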
